A study of Mus musculus with 38 samples.

Results

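The 10 genes described here are Meg3, Rian, Mirg, Dlk1, Peg3, Zdbf2, Nnat, Grb10, Plagl1 and Impact, a set of imprinted genes that lie outside the Ube3a region. They were taken by gene symbol from a count table of 54165 genes, in which 9 of the 10 had a row and Mirg was not analysed here. Expression was measured by RNA-seq of bulk tissue in the prefrontal cortex (PFC, 20 libraries) and the hypothalamus (Hypo, 18 libraries) of 25 adult FVB/NJ mice, 13 of which gave both tissues. Ube3a2X mice were homozygous for a transgene carrying extra, C-terminally flagged copies of Ube3a, an imprinted ubiquitin ligase gene, and were compared with their wild-type (WT) littermates, with 5 PFC libraries for each sex and genotype and, in Hypo, 4 WT and 5 Ube3a2X libraries for each sex. PFC was micropunched from sections and extracted with a Micro kit at 500 ng of input, whereas Hypo was excised with tweezers and extracted with a Mini kit at 1000 ng, so kit, input and tissue cannot be told apart. The comparisons asked of each gene whether PFC differed from Hypo and whether Ube3a2X differed from WT.

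An imprinted gene is transcribed mainly from the chromosome inherited from 1 parent, and imprinted genes tend to lie in clusters in which a differentially methylated control region sets the active allele. Of the genes described here, Meg3 and Rian are long noncoding RNAs made from the maternal chromosome, and Dlk1, Peg3, Zdbf2, Nnat, Plagl1, Impact and, in neurons, Grb10 are expressed from the paternal one. Many imprinted genes are known for roles in growth, feeding and maternal behaviour, and the hypothalamus is among the brain regions in which several of them are abundant. Read counts per gene do not separate the parental alleles, so every value below is a total over both.

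The Dlk1-Dio3 cluster on chromosome 12 contributed Dlk1 (109452823 to 109463336), Meg3 (109541001 to 109571726) and Rian (109603940 to 109661716), all on the plus strand of GRCm38. Peg3 lies on the minus strand of chromosome 7 (6703892 to 6730431), Zdbf2 on the plus strand of chromosome 1 (63273265 to 63314576), Nnat on the plus strand of chromosome 2 (157560078 to 157562522), Grb10 on the minus strand of chromosome 11 (11930508 to 12038683) and Plagl1 on the plus strand of chromosome 10 (13060504 to 13131694). Reference promoters from RefSeq (GRCm38.p6, 250 bases before to 50 after the start) were taken for 8 of the 9 genes, and Impact was left out. Those of Dlk1 and Nnat, the genes with the largest tissue differences, are shown first, followed by Meg3, Peg3 and Zdbf2, which share the 8-base cyclic AMP response element TGACGTCA, here in capitals.
Dlk1, chr12:109452573-109452872, plus strand: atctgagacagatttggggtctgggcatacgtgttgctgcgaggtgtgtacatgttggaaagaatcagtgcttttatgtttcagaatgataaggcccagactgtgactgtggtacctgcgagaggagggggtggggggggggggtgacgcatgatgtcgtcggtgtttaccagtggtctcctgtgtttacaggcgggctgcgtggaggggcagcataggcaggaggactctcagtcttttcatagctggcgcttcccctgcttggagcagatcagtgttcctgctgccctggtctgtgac
Nnat, chr2:157559828-157560127, plus strand: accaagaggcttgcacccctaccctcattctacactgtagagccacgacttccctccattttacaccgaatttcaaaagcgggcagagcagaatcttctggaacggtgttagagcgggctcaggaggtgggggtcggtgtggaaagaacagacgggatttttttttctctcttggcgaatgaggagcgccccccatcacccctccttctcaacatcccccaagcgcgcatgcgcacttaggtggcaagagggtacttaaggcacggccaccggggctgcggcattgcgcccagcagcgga
Meg3, first promoter, chr12:109540746-109541045, plus strand: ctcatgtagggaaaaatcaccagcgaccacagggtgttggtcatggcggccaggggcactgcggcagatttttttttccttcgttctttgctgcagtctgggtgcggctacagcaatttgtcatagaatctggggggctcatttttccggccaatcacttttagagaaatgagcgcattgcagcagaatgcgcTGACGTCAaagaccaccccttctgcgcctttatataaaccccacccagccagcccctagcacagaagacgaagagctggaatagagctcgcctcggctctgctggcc
Peg3, chr7:6730370-6730669, minus strand: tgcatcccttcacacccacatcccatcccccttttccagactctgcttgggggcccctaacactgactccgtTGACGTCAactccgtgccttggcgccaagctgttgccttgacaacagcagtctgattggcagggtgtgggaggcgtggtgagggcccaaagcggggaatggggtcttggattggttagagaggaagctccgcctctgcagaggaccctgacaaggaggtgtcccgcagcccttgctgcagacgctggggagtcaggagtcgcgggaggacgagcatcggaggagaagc
Zdbf2, second promoter, chr1:63273019-63273318, plus strand: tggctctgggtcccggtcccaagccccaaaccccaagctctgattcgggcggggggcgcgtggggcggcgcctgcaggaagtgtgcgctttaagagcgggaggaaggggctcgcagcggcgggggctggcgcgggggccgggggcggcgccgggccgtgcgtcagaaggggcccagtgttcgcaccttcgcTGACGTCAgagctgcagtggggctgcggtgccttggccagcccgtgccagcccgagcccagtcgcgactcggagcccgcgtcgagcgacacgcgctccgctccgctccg
The letters TGACGTCA read the same on both strands and were present in 1.79% of the 32851 promoters of this length, and in no listed promoter of Dlk1, Rian, Nnat, Grb10 or Plagl1. The other motifs searched, on both strands, were TATAAA, held by the first Meg3 promoter and by 13.6% of all promoters, and GGGGCCCC, held by Peg3 and by 1.08%. These matches describe the reference sequence only.

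Library depth ranged from 36.9 M to 69.1 M (megareads) assigned in PFC and from 39.0 M to 380.8 M in Hypo. All 8 cortical markers were higher in PFC and all 10 hypothalamic markers higher in Hypo. Ube3a, the check of the labels, ranged from 183 to 260 CPM (read counts per 1 M reads of the normalised library) in the WT and from 686 to 2169 CPM in the Ube3a2X PFC libraries, with no overlap. In Hypo it ranged from 103 to 355 CPM in WT and from 745 to 1724 CPM in Ube3a2X, again with no overlap. A single Hypo library, WT female 471, stood apart: its 7 pituitary markers summed to 4671 CPM, against 37.4 to 997 CPM in the other 17 Hypo libraries, and 53.7% of its bases fell in untranslated regions, against 35.9 to 44.0%. In this library Peg3 measured 864 CPM, Zdbf2 92.0 CPM, Grb10 166 CPM, Plagl1 46.3 CPM, Rian 515 CPM and Impact 713 CPM, each below every other Hypo library, and Nnat measured 1158 CPM, above all of them. The part of the pituitary signal in these values was not tested, and values without the library are given for Rian, for Meg3 in Hypo and for the correlations.

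All 9 imprinted genes measured were lower in PFC than in Hypo, with log2 differences (PFC minus Hypo) from -9.31 for Dlk1 to -0.18 for Rian. The test was edgeR's quasi-likelihood test over the 38 libraries with RNA integrity (RIN) as covariate and no mouse term. All 9 passed an adjusted p of 0.05, whereas 32.4% of the 22282 genes tested were called lower in PFC. RIN itself was lower in PFC (median 7.6, range 6.7 to 8.9) than in Hypo (8.95, 6.8 to 9.3), so RIN and tissue are only partly separable. Every Hypo library exceeded every PFC library for 7 of the 9, a separation shown by 10.2% of all genes tested in this direction. The median log2 difference was -2.17 over the 9 genes, -0.52 over the 59 other imprinted genes tested and -0.02 over all genes tested. In bulk tissue, fewer cells expressing a gene and less of its RNA per cell cannot be told apart.

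Within the Dlk1-Dio3 cluster, the protein-coding Dlk1 and its noncoding neighbours differed by very unequal amounts. Dlk1, a transmembrane ligand related to the Notch ligands, measured 0.191, 0.394 and 1.03 CPM (lowest, median, highest) in PFC and 267, 306 and 372 CPM in Hypo. No PFC library came near a Hypo library: the PFC values rest on 6 to 59 reads per library, and the Hypo values on at least 11635. Mean CPM was 703-fold higher in Hypo, and the log2 difference was -9.31 (SE 0.15, adjusted p = 1.15e-33, edgeR). Meg3 measured 803, 1360 and 2047 CPM in PFC and 1533, 2524 and 4505 CPM in Hypo. The ranges overlapped, with 4 of the 20 PFC libraries inside the Hypo range. The log2 difference of Meg3 was -0.86 (SE 0.15, adjusted p = 3.85e-06, edgeR). Rian, whose transcript hosts small nucleolar RNAs and miRNAs, measured 586, 670 and 759 CPM in PFC and 515, 823 and 958 CPM in Hypo. All 20 PFC libraries lay inside the Hypo range because of the WT female library 471, the lowest of all 38. Its log2 difference was -0.18 (SE 0.08, adjusted p = 0.041, edgeR), and -0.24 (adjusted p = 0.000627) without that library. With the mouse as a block, over the 26 libraries of the 13 mice with both tissues, Rian was not called (-0.26, adjusted p = 0.185). It also lost the call in 13 of the 38 fits that left out 1 library, with the highest adjusted p (0.126) without Hypo WT male 423. A fit added after the data were seen took the share of intronic bases per library as a further covariate. It gave -0.31 (SE 0.08) for Meg3, -0.03 (SE 0.08) for Rian and -9.33 (SE 0.17) for Dlk1.

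Among the paternally expressed genes of other clusters, Nnat and Zdbf2 showed the widest gaps. Nnat, which encodes the small membrane proteolipid neuronatin, measured 18.9, 29.7 and 46.8 CPM in PFC and 362, 600 and 1158 CPM in Hypo, a log2 difference of -4.30 (SE 0.18, adjusted p = 1.05e-21, edgeR). Its mean was 20.6-fold higher in Hypo. Zdbf2, a zinc finger gene, measured 18.7, 35.2 and 53.2 CPM in PFC and 92.0, 251 and 306 CPM in Hypo, with a log2 difference of -2.63 (SE 0.16). Grb10, an adaptor that dampens insulin and growth factor receptor signalling, measured 43.9, 52.8 and 68.8 CPM in PFC and 166, 274 and 306 CPM in Hypo, with a log2 difference of -2.24 (SE 0.08). For each of these genes the lowest Hypo library was above the highest PFC library. Peg3, a zinc finger protein gene, measured 296, 379 and 528 CPM in PFC and 864, 2023 and 2253 CPM in Hypo (log2 difference -2.17, SE 0.11). Plagl1, a zinc finger transcription factor gene, measured 18.8, 25.96 and 37.6 CPM in PFC and 46.3, 93.0 and 115 CPM in Hypo (log2 difference -1.65, SE 0.12). Impact, an inhibitor of the kinase Gcn2, measured 348, 403 and 537 CPM in PFC and 713, 1025 and 1154 CPM in Hypo (log2 difference -1.23, SE 0.07). For these 3 genes, too, the tissues did not overlap, and library 471 was the Hypo library closest to PFC.

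**Figure D1:**
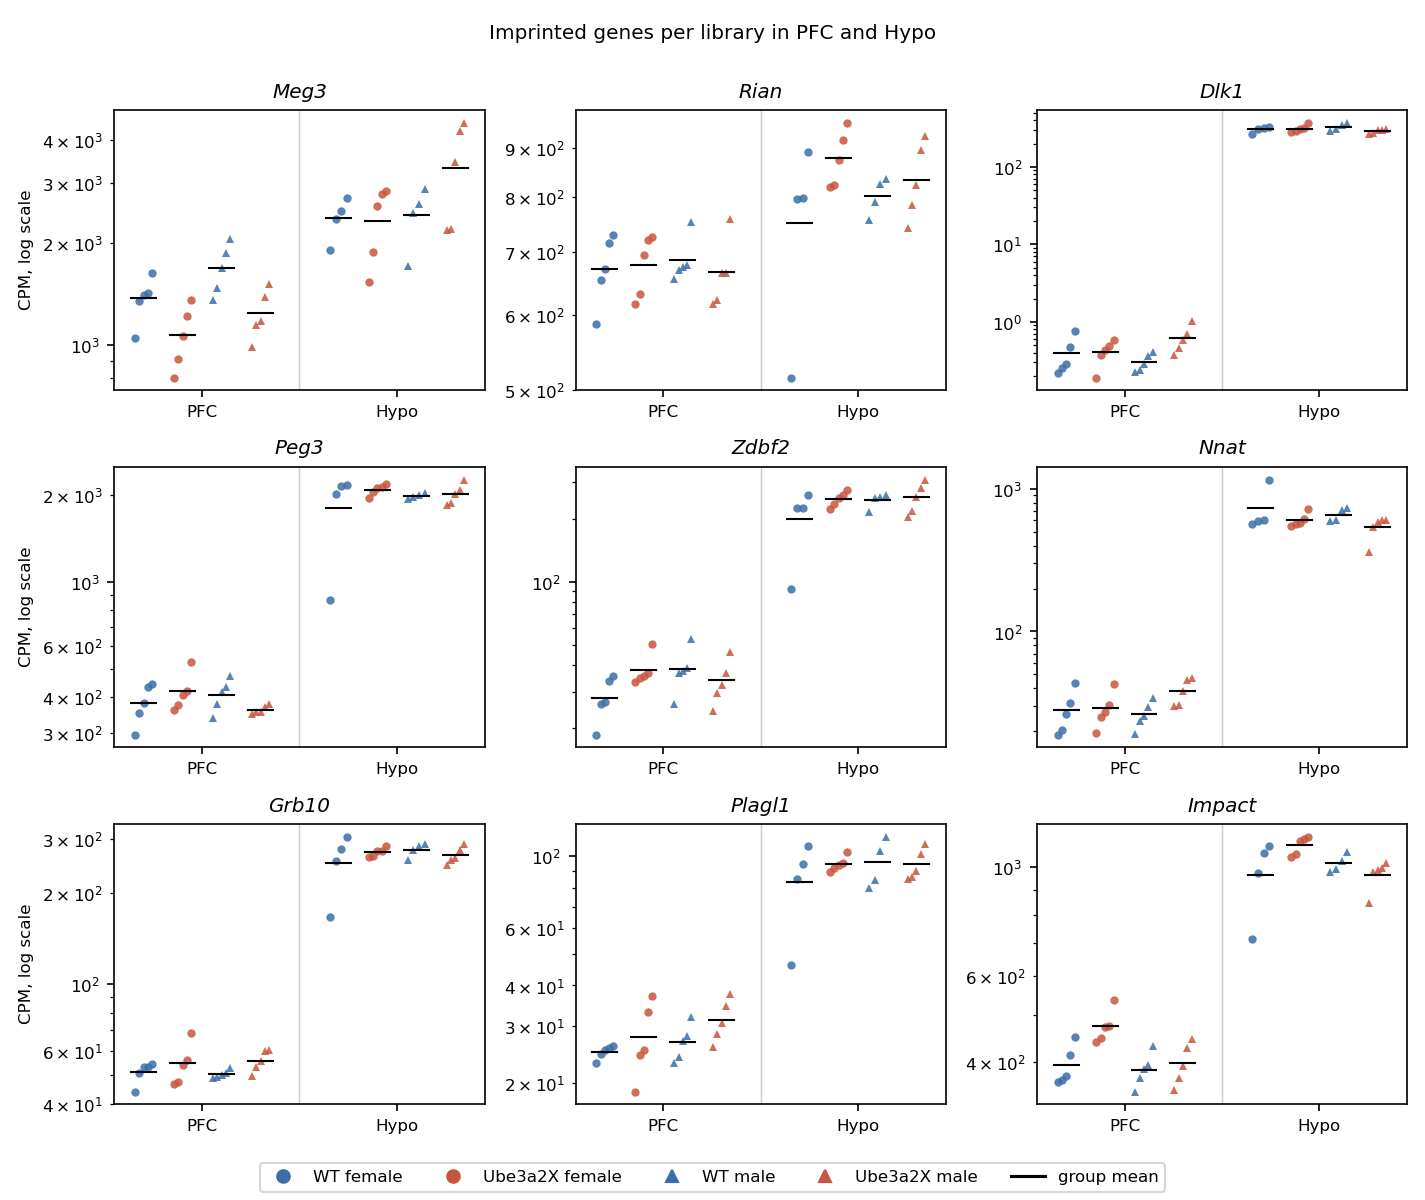
CPM on a log axis for each of the 9 genes in each library, with PFC on the left and Hypo on the right of each panel, WT in blue, Ube3a2X in red, females as circles, males as triangles and group means as bars. Dlk1 sits between 0.191 and 1.03 CPM in PFC and between 267 and 372 CPM in Hypo, while Rian and Meg3 overlap between tissues. The low WT female Hypo point of Peg3, Zdbf2, Grb10, Plagl1, Rian and Impact is mouse 471.

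The difference was also present within single animals. Of the 13 mice that gave both tissues, 4 were WT and 9 Ube3a2X. Higher levels in Hypo were seen in 13 of 13 mice for 8 of the 9 genes, and in 12 of 13 for Rian. The share of all genes with such counts was not computed. The within-mouse log2 difference, Hypo minus PFC, ran from 7.98 to 10.5 for Dlk1 and from 2.98 to 5.27 for Nnat. It ran from 2.28 to 3.53 for Zdbf2 and from 0.21 to 2.19 for Meg3. Grb10 ran from 1.94 to 2.55 and Impact from 1.07 to 1.54.

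In WT mice alone, 8 of the 9 genes were called lower in PFC, against 31.6% of all genes, and in Ube3a2X mice all 9 were, against 27.7%. Rian was the gene not called in WT (log2 difference -0.12, SE 0.08, adjusted p = 0.218, edgeR), and it was called there once library 471 was left out (-0.21, adjusted p = 0.00514). In Ube3a2X mice the log2 difference of Rian was -0.24 (SE 0.10, adjusted p = 0.042, edgeR). That call was lost in 15 of the 38 fits without 1 library (adjusted p up to 0.106, without PFC Ube3a2X female 468) and with the mouse as a block (-0.29, adjusted p = 0.204). With the share of intronic bases per library as covariate, a fit added after the data were seen, Rian in Ube3a2X mice was at -0.0052 (SE 0.11) and not called. Meg3 differed by -0.57 (SE 0.16) in WT and by -1.14 (SE 0.19) in Ube3a2X mice, and by -0.33 (SE 0.07) and -0.28 (SE 0.11) with that covariate. The Meg3 call in WT was lost without the Hypo library of WT male 423, whose RIN of 6.8 was the lowest in Hypo (-0.38, adjusted p = 0.130). It was also not called with the mouse as a block (-0.51), a fit that held 4 WT mice, with 262 the only female among them. Dlk1 differed by -9.68 (SE 0.18) in WT and by -8.95 (SE 0.21) in Ube3a2X, and Nnat by -4.61 (SE 0.20) and -3.99 (SE 0.24).

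**Figure D2:**
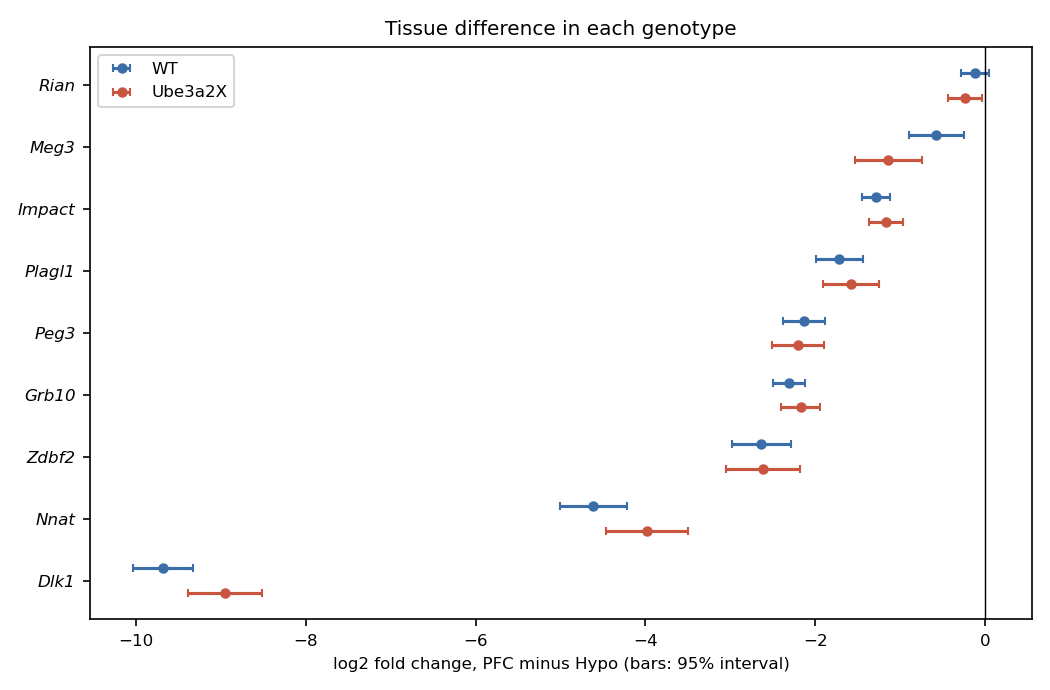
Log2 fold change of PFC minus Hypo (horizontal axis) for each gene, estimated within WT (blue) and within Ube3a2X mice (red), with 95% intervals from the edgeR fit over 38 libraries. The points run from -0.12 for Rian in WT to -9.68 for Dlk1 in WT, and only the interval of Rian in WT includes 0.

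The test of whether the genotype effect itself differed between tissues called none of the 9 genes and 0% of the 22282 genes tested by edgeR. Of the 9, 3 had an unadjusted p under 0.05: Dlk1 (0.73, 95% interval 0.27 to 1.20), Nnat (0.63, 0.16 to 1.10) and Meg3 (-0.57, -0.98 to -0.16), as log2 differences between the PFC and Hypo genotype effects. Their adjusted p-values were 0.243, 0.303 and 0.287, and the direction of Meg3 turned with the intronic share as covariate (0.0521, SE 0.10). The value of Nnat was 0.40 (SE 0.26) with that covariate and 0.42 without library 471. Of all genes, 2474 (11.1%) had an unadjusted p under 0.05. DESeq2 called 34 genes and limma-voom 0, none of them among the 9. The Dlk1 value rests on the 6 to 59 reads of the PFC libraries.

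The neighbours of these genes in their clusters did not all share their direction. Rtl1, the retrotransposon-like gene between Meg3 and Rian, which is known to have an antisense transcript whose reads may not be separable, was lower in PFC (0 to 0.503 CPM) than in Hypo (12.2 to 18.6 CPM), with a log2 difference of -5.92 (SE 0.21). Dio3, the thyroid hormone-inactivating deiodinase at the far end of the same cluster, had 4 to 151 reads per library over both tissues and was called higher in PFC (0.82, SE 0.33, adjusted p = 0.032, edgeR). Usp29 (-2.33, SE 0.12) and Zim1 (-4.61, SE 0.14), both next to Peg3, were called lower in PFC, while Zfp264 (-0.59, SE 0.43) and Zim3 were not called, the fitted value of Zim3 (0.15, SE 0.54) having the opposite sign to its means (1.17 CPM in PFC, 1.75 CPM in Hypo), and Zim2 held at most 2 reads in any library. Gpr1, next to Zdbf2, was lower in PFC by a log2 difference of -1.03 (SE 0.16), and so was Blcap, in whose intron Nnat lies (-1.12, SE 0.08). Beside Grb10, Ddc, which encodes the enzyme making dopamine and serotonin from their precursors, was lower in PFC (-4.28, SE 0.08), but Cobl, an actin nucleator gene, was higher (1.86, SE 0.10). Phactr2, next to Plagl1, was lower (-0.84, SE 0.13).

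Of the wider list of 66 imprinted genes, 64 had a row and 59 were tested between tissues. Of these, 35 were lower in PFC and 12 higher, with 12 not called, where 32.4% of all genes tested were lower and 31.0% higher. The 5 called lower with the largest differences were Calcr, the calcitonin receptor (-11.18), Asb4 (-7.14), Rtl1 (-5.92), Peg10 (-4.78) and Zim1 (-4.61). The 5 called higher with the largest differences were Slc22a2 (1.94), Cobl (1.86), Htr2a, a serotonin receptor (1.73), Cdkn1c, a cell cycle inhibitor (1.39) and Wt1 (1.35). Markers of other cell types moved with tissue: 7 of 7 oligodendrocyte markers were lower in PFC, where they summed to 982 to 3520 CPM against 3193 to 5226 CPM in Hypo. All 6 ependymal and tanycyte markers were lower in PFC too (5.95 to 13.05 CPM against 70.3 to 116 CPM summed), and 6 of 7 excitatory neuron markers were higher in PFC (6098 to 10750 CPM against 667 to 1029 CPM). Of the choroid plexus list, 5 of 7 were lower in PFC (1.55 to 5.37 CPM against 39.9 to 76.8 CPM), as were 5 of 7 thalamic markers (133 to 244 CPM against 325 to 459 CPM) and 3 of 7 striatal markers, with 2 higher (89.1 to 162 CPM against 146 to 258 CPM). Of 7 astrocyte markers 4 were lower and 1 higher in PFC (5077 to 11163 CPM against 3444 to 5067 CPM), of 7 inhibitory neuron markers 2 were lower and 3 higher (750 to 1106 CPM against 671 to 1317 CPM) and of 7 meningeal markers 2 were lower and 2 higher (10.5 to 76.6 CPM against 39.4 to 104 CPM). Microglial markers (214 to 337 CPM against 172 to 218 CPM) and vascular markers (226 to 590 CPM against 199 to 259 CPM) were each higher in PFC for 5 of 7. The pituitary list was at 0.21 to 2.26 CPM summed in PFC, where 5 of its 7 markers were called lower, and none of its markers was at 0 in every library. The part of cell makeup in the tissue differences was not tested.

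Levels were also ranked per length, as RPKM, the reads per kilobase of annotated exon scaled to library size. In PFC, Impact (median 78.6 RPKM) and Meg3 (75.2) led, with overlapping ranges. Rian (36.8), Peg3 (28.4) and Nnat (16.2) followed, each range overlapping the next, and below them came Grb10 (5.81), Plagl1 (3.32) and Zdbf2 (2.78), where Grb10 stood clear of its neighbours and the last pair overlapped. Dlk1 was lowest at 0.0696 RPKM, below every library of Zdbf2. In Hypo, Nnat moved to the top (328 RPKM), ahead of Impact (200), Peg3 (152) and Meg3 (140), and the ranges of these neighbours overlapped. Dlk1 stood at rank 5 (54.1 RPKM), separated from Meg3 above it but overlapping Rian (45.2), which in turn overlapped Grb10 (30.1). Zdbf2 (19.8) and Plagl1 (11.9) were lowest. The overlaps of Rian with Grb10, Grb10 with Zdbf2 and Zdbf2 with Plagl1 rested on library 471, where Rian was at 28.3 RPKM against at least 40.7 RPKM in the other Hypo libraries, and were absent without it. With the longest transcript in place of all annotated exons, several of these medians moved by over 1.5 times. Rian was then 82.9 RPKM in PFC and 102 RPKM in Hypo, above Dlk1 (65.8) in Hypo. Grb10 was 10.4 RPKM in PFC and 54.1 in Hypo, and Peg3 was 43.6 and 233.

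None of the imprinted genes was called between Ube3a2X and WT mice in either tissue. In PFC, 7 of the 9 passed the filters and 0 were called by edgeR with RIN and 2 surrogate variables, against 0.0183% of 10900 genes, and 1 had an unadjusted p under 0.05, as had 7.9% of all genes. In Hypo, 8 passed and 0 were called, against 0.00843% of 11869 genes, and 1 had an unadjusted p under 0.05, as had 5.24% of all genes. DESeq2 and limma-voom called 0 in both tissues for this contrast. The single gene called in Hypo, and 1 of the 2 in PFC, was Ube3a itself (log2 fold change 1.97 and 2.33). Of the other imprinted genes, 0 of 34 tested in PFC and 0 of 41 tested in Hypo were called, with 3 and 6 at an unadjusted p under 0.05.

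Meg3 had the smallest p of the set. Its PFC level was 1053, 1449 and 2047 CPM (lowest, median, highest of 10) in WT and 803, 1162 and 1512 CPM in Ube3a2X mice, and the ranges overlapped. The log2 fold change was -0.38 (95% interval -0.60 to -0.16, unadjusted p = 0.0019, adjusted p = 0.329, edgeR). Within males it was -0.47 (-0.77 to -0.17, adjusted p = 0.140) and within females -0.29 (-0.61 to 0.03, adjusted p = 0.375). For males DESeq2 gave -0.48 with an adjusted p of 0.043, where DESeq2 called 245 of all genes (2.25%), and the other 10 alternatives did not call it. With the leading 2 components of the quality measures as covariates it was -0.0476. In Hypo, Meg3 measured 1708, 2468 and 2877 CPM in WT and 1533, 2671 and 4505 CPM in Ube3a2X. The log2 fold change there was 0.18 (-0.23 to 0.58), with 0.56 (-0.02 to 1.13) in males and -0.20 (-0.74 to 0.33) in females. Without library 471 the value was 0.041 for both sexes and 0.18 in males, and without Hypo Ube3a2X female 272 it was -0.066 in females.

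**Figure D3:**
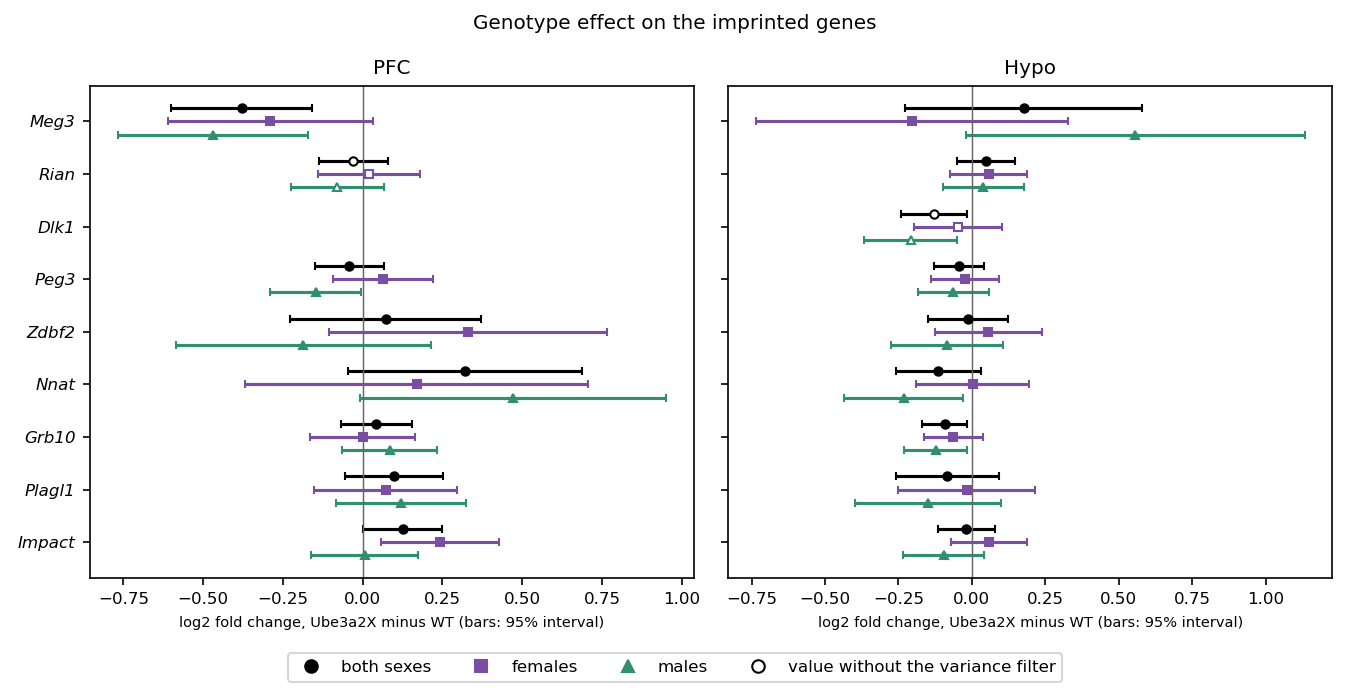
Log2 fold change of Ube3a2X minus WT in PFC (left) and Hypo (right) for both sexes together (black circles), females (squares) and males (triangles), with 95% intervals. Open symbols are values without the variance filter, and Dlk1 is not drawn in PFC. Meg3 sits at -0.38 in PFC and 0.18 in Hypo, and no value passed an adjusted p of 0.05.

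The share of a library's aligned bases that fell in introns moved with Meg3. Meg3 RNA is known to be retained in the nucleus. After the 4 group means of sex and genotype were removed, Meg3 and the intronic share correlated across the 20 PFC libraries with Pearson's r = 0.876 and Spearman's rho = 0.887, and across the 18 Hypo libraries with r = 0.966 and rho = 0.946. Each of these p-values was 1e-05, the smallest that 100000 permutations within groups can give (two-sided, adjusted p = 0.00011 over 22 relations). Without the 2 libraries of most extreme intronic share, r was 0.882 in PFC and 0.973 in Hypo, and without library 471 it was 0.964 in Hypo. Rian followed the intronic share in Hypo (r = 0.653, rho = 0.765, adjusted permutation p = 0.000275 for r and 0.00631 for rho, r = 0.656 without the 2 extreme libraries and r = 0.873 without library 471), and in PFC the relation did not pass (r = 0.422, rho = 0.429, adjusted permutation p = 0.195). Meg3 and Rian correlated with each other in Hypo (r = 0.646, rho = 0.732, adjusted permutation p = 0.000275 for r and 0.00682 for rho, r = 0.618 without the 2 extremes and r = 0.858 without library 471) and did not pass in PFC (r = 0.479, rho = 0.463, adjusted permutation p = 0.157). Dlk1 and Meg3 did not pass in either tissue (r = -0.157 in PFC and 0.0516 in Hypo, or -0.0566 without library 471), nor did the intronic share with any of the other 7 genes. Reads of Meg3 made up 0.0746 to 0.192% of a PFC library and 0.161 to 0.492% of a Hypo library, while intronic bases made up 3.06 to 5.85% and 3.88 to 9.52%.

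The intronic share also differed along the comparisons. Its median was 4.08% in PFC and 5.70% in Hypo. Within PFC it was 4.59% in WT and 3.22% in Ube3a2X males, and 4.22% and 3.29% in females. Within Hypo it was 5.63% in WT and 7.32% in Ube3a2X males, and 5.47% and 5.91% in females. A fit with the intronic share in place of the surrogate variables was added after the data were seen. In it the log2 fold change of Meg3 for genotype was 0.01 (SE 0.10) in PFC and -0.06 (SE 0.07) in Hypo. It was 0.09 (SE 0.14) in PFC males and -0.06 (SE 0.10) in PFC females. In Hypo it was -0.01 (SE 0.11) in males and -0.11 (SE 0.09) in females. With the intronic share added to the tissue fit, the log2 difference of Meg3 between PFC and Hypo was -0.31 (SE 0.08, adjusted p = 0.00103, edgeR) in place of -0.86, and that of Rian was -0.03 (adjusted p = 0.780) in place of -0.18. In the same fit Dlk1 remained at -9.33, Nnat at -4.49, Zdbf2 at -2.47, Grb10 at -2.19, Peg3 at -2.05, Plagl1 at -1.54 and Impact at -1.22.

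**Figure D4:**
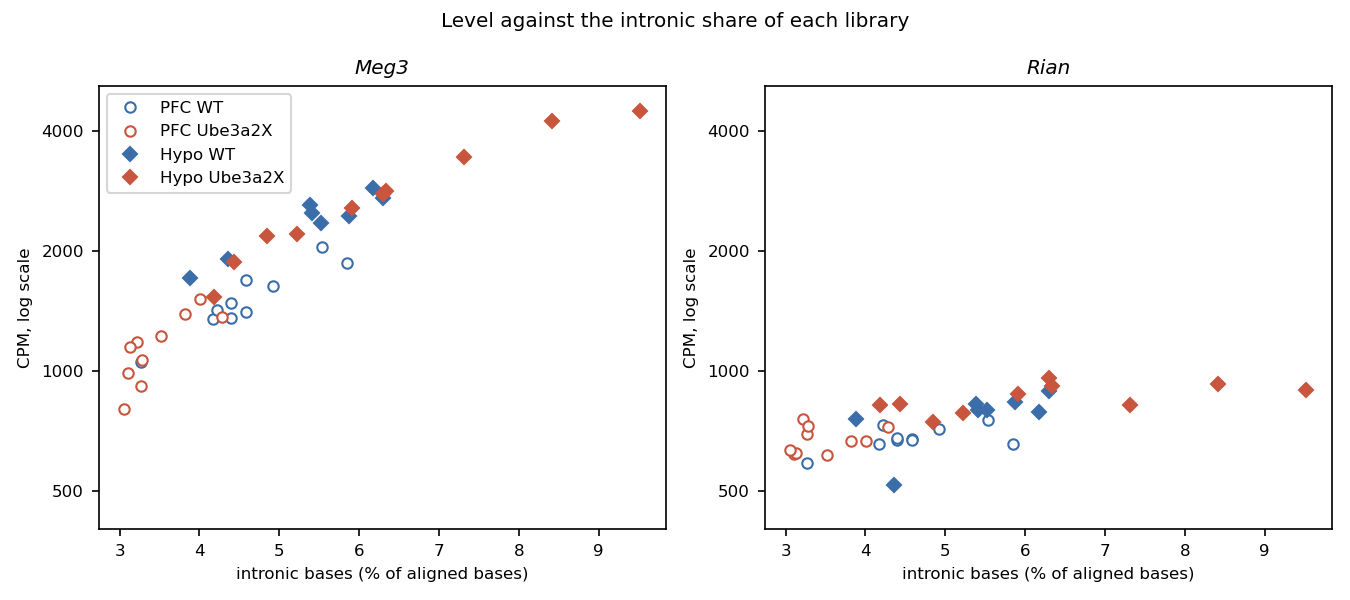
CPM on a log axis against the share of intronic bases in each library for Meg3 (left) and Rian (right), with PFC as open symbols, Hypo as filled symbols, WT in blue and Ube3a2X in red. Meg3 runs from 803 CPM at 3.06% intronic bases to 4505 CPM at 9.52%, whereas Rian stays between 515 and 958 CPM.

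For the other genes the genotype effect was smaller than its error allowed to be called. Nnat in PFC measured 18.9, 25.8 and 43.5 CPM in WT and 19.5, 30.7 and 46.8 CPM in Ube3a2X, a log2 fold change of 0.32 (95% interval -0.05 to 0.69), or 0.20 (SE 0.24) with the intronic share in place of the surrogate variables. Impact in PFC measured 348, 381.04 and 449 CPM in WT and 351, 443 and 537 CPM in Ube3a2X (0.12, -0.00013 to 0.25), with 0.24 (0.06 to 0.43, adjusted p = 0.306, edgeR) in females and 0.01 in males. The female value of Impact was 0.13 without WT female 397, and the value for both sexes 0.082. Grb10 in Hypo measured 166, 278 and 306 CPM in WT and 246, 269 and 289 CPM in Ube3a2X, with a log2 fold change of -0.09 (-0.17 to -0.02, adjusted p = 0.910, edgeR), which was 0.0107 without surrogate variables and -0.039 with the intronic share in their place. Ranges of the genotypes overlapped for each of these genes. In PFC the estimates for Peg3 (-0.04), Zdbf2 (0.07), Grb10 (0.04) and Plagl1 (0.10) had intervals that included 0, as did those for Peg3 (-0.04), Zdbf2 (-0.01), Nnat (-0.11), Plagl1 (-0.08), Impact (-0.02) and Rian (0.05) in Hypo. Neither the size nor, for some, the sign of these estimates was stable. Without surrogate variables the Hypo values were 0.13 for Peg3, 0.17 for Zdbf2, -0.35 for Nnat, 0.06 for Plagl1, 0.05 for Impact and 0.15 for Rian. With the intronic share in place of the surrogate variables the PFC values were 0.06 for Peg3, 0.17 for Zdbf2, 0.11 for Grb10 and 0.23 for Plagl1, and that of Nnat in Hypo was -0.25. Single libraries moved them too: without WT female 262 the Hypo values were -0.05 for Nnat and -0.0013 for Plagl1, without library 471 that of Zdbf2 was 0.01, without WT female 398 that of Impact was 0.01, and without WT male 245 the PFC value of Zdbf2 was -0.05.

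Of the genes that the filters removed, Rian in PFC (586 to 752 CPM in WT, 616 to 759 CPM in Ube3a2X) belonged to the 15% of genes with the lowest variance, as did Dlk1 in Hypo (268 to 372 CPM in WT, 267 to 365 CPM in Ube3a2X). Without the variance filter, the genotype log2 fold change was -0.03 (95% interval -0.14 to 0.08) for Rian in PFC and -0.13 (-0.24 to -0.02, adjusted p = 0.948, edgeR) for Dlk1 in Hypo. Dlk1 in PFC was below 100 reads in 20 of 20 libraries. It measured 0.222 to 0.771 CPM in WT and 0.191 to 1.03 CPM in Ube3a2X, and with no low-count filter its log2 fold change was 0.86 (SE 0.28, adjusted p = 0.371, edgeR). In that fit the Dlk1 value was 1.27 (SE 0.36) in males and 0.45 (SE 0.38) in females, a difference of 0.82 (SE 0.48), and none of these was called.

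Within each sex, 0 of the 7 genes tested in PFC were called in males (background 0.0275%) and 0 in females (0.00917%), with 2 and 1 at an unadjusted p under 0.05 (18.3% and 14.6% of all genes). In Hypo 0 of 8 were called in males (0%) and 0 in females (0.00843%), with 2 and 0 at an unadjusted p under 0.05 (9.2% and 2.93% of all genes). The sex*genotype interaction called 0 of 7 in PFC and 0 of 8 in Hypo (0% of genes in both), with 0 and 1 at an unadjusted p under 0.05 (25.2% and 6.9% of all genes), and limma-voom and DESeq2 called 0 of them in both tissues. Among the 7 genes tested in PFC, Zdbf2 had the largest interaction estimate: its Ube3a2X minus WT log2 fold change was 0.33 in females and -0.19 in males, a difference of -0.52 (SE 0.28, adjusted p = 0.245, edgeR). Single libraries moved it: the difference was -0.30 without Ube3a2X male 258, the male value was -0.00034 without Ube3a2X male 238 and -0.36 without WT male 245, and the female value was 0.51 without WT female 93. For Peg3 the interaction was -0.21 (SE 0.10, adjusted p = 0.201), and it was called when WT female 93 was left out (-0.33, adjusted p = 0.044), a fit in which 1624 of all genes were called. Without WT female 397 it was -0.0998. Among the 8 tested in Hypo the largest interaction estimate was that of Meg3, 0.76 (SE 0.35, adjusted p = 0.703), which was 0.11 (SE 0.14) with the intronic share in place of the surrogate variables. It was 0.27 without library 471, and its 11 alternatives ranged from 0.11 to 0.78.

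Between males and females, 0 of 7 genes were called in PFC (background 0.0917%) and 0 of 8 in Hypo (2.3%), with 2 and 1 at an unadjusted p under 0.05 (8.83% and 17.8% of all genes). DESeq2 and limma-voom called none of them for sex. The number of all genes called for sex in Hypo varied widely over the alternatives, as given in the last section. The male minus female difference of Impact was -0.16 (95% interval -0.29 to -0.03, adjusted p = 0.438, edgeR) in PFC and -0.11 (-0.21 to -0.02, adjusted p = 0.197) in Hypo on the log2 scale, neither of which passed (-0.070 in Hypo without Ube3a2X male 258). With the intronic share in place of the surrogate variables, it was -0.18 (SE 0.07) in PFC and -0.05 (SE 0.08) in Hypo. Meg3 differed by 0.27 (0.04 to 0.51, adjusted p = 0.502) in PFC, and by 0.12 (SE 0.08) with the intronic share in place of the surrogate variables. The 1 imprinted gene outside the set that was called for sex was Asb4, an ankyrin repeat protein of the hypothalamus, higher in Hypo of males by 0.31 (SE 0.07, adjusted p = 0.021, edgeR).

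Over all 38 libraries, after the 8 group means were removed, several of the genes varied together as log2 CPM, and these correlations are descriptions over libraries that share depth and RNA quality. The closest pair was Peg3 and Zdbf2 (Pearson's r = 0.825), followed by Peg3 and Grb10 (0.751), Peg3 and Impact (0.739), Grb10 and Impact (0.732) and Grb10 and Plagl1 (0.730). Nnat ran the other way, with r = -0.622 against Grb10 and -0.579 against Peg3. Library 471, low for these genes and high for Nnat, is among the points, and the values moved without it, an alternative chosen after seeing the data. Over the remaining 37 libraries Peg3 and Zdbf2 stayed the closest pair (0.700), Meg3 and Rian came next (0.665), Peg3 and Grb10 stood at 0.437, Peg3 and Impact at 0.496, Grb10 and Impact at 0.522 and Grb10 and Plagl1 at 0.529. Nnat gave -0.494 against Grb10 and -0.429 against Peg3. Of all genes kept in the fit, those most like Meg3 were Spaca6 (0.923), Fam227a (0.920) and Gm26871 (0.919), and those most like Rian were Ttc14 (0.901), Gm44790 (0.891) and Phf20l1 (0.888). Dlk1 was closest to Kcna5 (0.805), Efnb3 (0.773) and Nptx1 (0.758). Its values rest largely on PFC libraries of 6 to 59 reads, where the SD within groups was 0.35 to 0.69, against 0.09 to 0.17 in Hypo. Nnat was closest to Rarres2 (0.752), Pdzd4 (0.747) and Mxra8 (0.745). The 3 nearest to Peg3 were Osbpl6 (0.966), D130043K22Rik (0.962) and Ttc39b (0.958), those to Zdbf2 Arl5b (0.883), Phf8 (0.875) and Kdm7a (0.871), and those to Grb10 Usp13 (0.945), Tmem178b (0.942) and Vldlr (0.935). Genes alike to Plagl1 included Plxnc1 (0.854) and Slc25a37 (0.850), and Impact was closest to Prkacb (0.909), Ate1 (0.908) and Acsl4 (0.894). Without library 471 each gene named here was within the 12 most alike to its imprinted gene.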

How the data were processed

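RNA-seq libraries (TruSeq Stranded mRNA, polyadenylated RNA) were aligned by the authors to GRCm38 with STAR and counted per gene with featureCounts on Gencode v24. Versions and the strand setting are not given in the sources used here, so reads of overlapping genes on opposite strands, as at Meg3 (Gm26906), Zdbf2, Nnat and Plagl1, may not be separable. The authors deposited raw read counts and a table of Picard quality measures, which holds fractions of bases, a ratio, scores such as RIN and read counts; the share of intronic bases was read from it.

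Counts were analysed in R 4.3.3 with edgeR 4.0.16 (TMM, estimateDisp, glmQLFit robust, glmQLFTest), limma 3.58.1, sva 3.50.0 and DESeq2 1.42.0. CPM used TMM library sizes, and log2 CPM a prior count of 2. Tissues were compared in 1 fit of 38 libraries (8 groups and RIN, filterByExpr, 22282 genes). Genotype, sex and sex*genotype were fitted per tissue with RIN and 2 surrogate variables, after removing genes with under 100 reads in 2 or more libraries and then the 15% of lowest variance (10900 genes in PFC, 11869 in Hypo). The covariates and the wording of the filters were taken from the study's methods, but the number of genes kept differed from the study's. edgeR was used in place of the study's limma-voom, which was run as an alternative. P-values were adjusted over all genes tested (Benjamini-Hochberg). RPKM used exon unions of GENCODE vM21 (53905 of 54165 genes matched).

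The genes and lists were chosen with earlier results of these data known. Named genes were the 9 measured, the 5 other imprinted genes per direction with the largest tissue difference, any other imprinted gene called elsewhere, cluster neighbours, and the 3 genes of highest Pearson's r with each, of which 1 is not reported here. Hymai, Nespas and Mirg were not analysed here, nor were the planned correlations with Mirg. The lists of prefrontal, hypothalamic, neuronal, glial, vascular, meningeal, choroid plexus, ependymal, pituitary, striatal and thalamic markers were summed per library. Pairing of the tissues rests on the same mouse: the correlation of paired deviations was -0.31 to 0.21 over 13 mice (median -0.0085), over 0.1 in 2. No replicate pair was a duplicate: 72 within-group pairs differed by 11.2 to 504 times the sampling noise. Scripts were tested on simulated counts. P-values of the fits and permutations within a single tissue measure the spread between mice. The tissue fit had no mouse term, so its p-values measure the spread between 38 libraries of 25 mice.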

Additional observations from a re-analysis of the deposited data

Results flagged for a closer look

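In groups of 4 or 5 libraries, 7 of the 72 combinations of gene and group held a library far from the rest by Dixon's test, or 9.72%, where chance alone flags about 1 in 20. In log2 CPM, the Hypo library of WT female 471 was the lowest of its group for Peg3 (9.75) and Zdbf2 (6.52) and the highest for Nnat (10.18). Rian was high in PFC of WT male 251 (9.55) and Zdbf2 was high in PFC of Ube3a2X female 468 (5.66). In Hypo of Ube3a2X males, Nnat was low in mouse 238 (8.50), the library with the largest intronic share, and Impact was low in mouse 258 (9.72). None of these libraries was removed.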

How the results depend on the processing

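The number of imprinted genes called stayed within 1.5 times its value under every alternative except in 2 cases, both outside the tissue difference. In PFC males, DESeq2 called 1 of the imprinted genes for genotype, Meg3, where edgeR called 0, and it called 245 of all genes (2.25%) where edgeR called 3. The PFC sex*genotype interaction called 0 to 1 when each library was left out, the 1 being Peg3 without WT female 93. In that interaction DESeq2 called 778 of all genes where edgeR called 0, and edgeR without WT female 93 called 1624. The sex effect in Hypo called 7 to 662 of all genes over the alternatives, against 273. The tissue difference was called for 8 or 9 genes under all 9 alternatives and in all 38 fits without 1 library, and for 7 to 9 in WT mice. The share of all genes called for tissue was 63.4%, ranging from 29.1% with the mouse as a term to 76.2% without RIN. Dlk1 was not tested where at least 100 reads were required in both tissues. Rian lost its call with the mouse block, with the intronic share (-0.0280) and in 13 of the 38 fits without 1 library, where its value ranged from -0.24 to -0.15. The mouse as a term, over 26 libraries (replicate block), lost Rian in both genotypes together (-0.26) and in Ube3a2X mice (-0.29) and Meg3 in WT mice (-0.51). It changed no other call, and its WT part rests on 4 mice. With the mouse as a random block, limma-voom changed none. In 2 fits chosen after seeing the data, the estimate of Meg3 changed sign: with the intronic share in place of the surrogate variables for genotype in PFC (0.0142) and in PFC males (0.0903), and with it as an added covariate for the difference of genotype effects between tissues (0.0521). Without surrogate variables Grb10 changed sign in Hypo (0.0107). Another 182 estimates changed sign with an unadjusted p over 0.05 both ways. The 22 correlations kept their calls with raw library sizes, and the 11 in Hypo also without library 471, added after seeing the data, where 3 that were not called changed sign (Dlk1 with Meg3, -0.0566, and the intronic share with Dlk1, -0.097, and with Impact, -0.167). Dlk1 in PFC rests on 6 to 59 reads per library.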
